A study of Arabidopsis thaliana with 32 samples.

Results

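The loci described here are the 777 genes and pseudogenes of Arabidopsis thaliana chromosome 4 whose locus number runs from AT4G04000 to AT4G08800, out of 30385 loci measured. They were taken by locus number alone, within a range chosen with earlier results of these data known. The 3909 other loci of the same chromosome (other AT4G loci) served for comparison. The labels describe whole seedlings of the sahh1 mutant, deficient in S-adenosylhomocysteine hydrolase 1, and of the Columbia wild type. Seedlings of 1, 4, 7 and 10 days gave 8 groups, each with 4 single-colour (Cy3) arrays. The mutant allele and the growth conditions are not given in the sources used here. Each age asks how transcript levels in sahh1 seedlings differ from those in wild-type seedlings of that age.

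By this range the set is taken to cover the heterochromatic knob on the short arm of chromosome 4 and the stretch around its centromere. Such chromatin is rich in transposable elements and their remains, which plants keep silent through DNA methylation and histone methylation. The methyl groups come from S-adenosylmethionine. Each transfer leaves S-adenosylhomocysteine, which inhibits methyltransferases until S-adenosylhomocysteine hydrolase breaks it down.

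Values are the authors' normalized array intensities on the log2 scale, where 1 unit is a 2-fold difference. Over 17003 bright loci, arrays 1 and 2 of every group resembled one another more than they did arrays 3 and 4. The difference between 2 arrays had an SD of 0.119 to 0.397 inside such a pair, against 0.193 to 0.765 across pairs of a group. Over the region's own loci, most of them dim, the ranges inside and across pairs overlapped in wild type at days 1, 4 and 10 and in sahh1 at day 10. Pairs were averaged to 1 sample, and every group holds n = 2 samples. Nothing in the labels says that samples are separate cultures, so p-values measure the spread between these samples, which may be technical. A difference is sahh1 minus wild type, given ± its standard error from limma. A locus was called, and is said to have risen or fallen, when its limma p-value, adjusted by the Benjamini-Hochberg method over all 30385 loci, was under 0.05. The number of arrays limits the precision of all values.

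The sahh1 samples of day 4 stood apart from each other, with an SD between arrays of different pairs of 0.754 to 0.765, against 0.307 to 0.331 in wild type. SAHH1 itself (AT4G13940; the reference names it HOG1) was lower in sahh1 at day 1 (−1.26, adjusted p = 0.0117) and day 4 (−1.53, adjusted p = 0.0144). It was not called at day 7 (−0.48, adjusted p = 0.723) or day 10 (−0.77, adjusted p = 0.276). Both sahh1 samples nevertheless lay below both wild-type samples at every age, and SAHH1 fell on the mean of the ages (−1.01, adjusted p = 0.000316). Leaf markers (RBCS1A, CAB1 and LHCA1) had log2 values of at least 11.72 in all 16 samples, and the 2 pollen markers (VGD1 and AT5G45880) had at most 5.98. Both seed storage genes, CRA1 and CRU3, were, as deposited, brightest at day 1, and were called at no age. Of the 2 root markers, the aquaporin gene TIP2;3 was lower in sahh1 at day 4 (−2.73, adjusted p = 0.00303), and the root-hair expansin gene EXPA7 at day 4 (−1.44, adjusted p = 0.0329) and day 10 (−1.95, adjusted p = 0.00444). In whole seedlings, fewer cells of a type and less RNA per cell cannot be told apart.

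The region differs from the rest of the chromosome in what it holds. Of its 777 loci 544 (70.0%) are pseudogenes in the reference and 231 (29.7%) are protein coding, while 2 were not found there. Among other AT4G loci 221 (5.65%) are pseudogenes and 3648 (93.3%) protein coding, and over all loci 4426 (14.6%) are pseudogenes. The reference marks no transposable element genes, so loci of that kind may be counted as pseudogenes. Most of the region's loci gave little signal: 463 (59.6%) had a mean log2 intensity below 5.60, the lower quartile of all loci, against 753 (19.3%) of other AT4G loci. That share was 71.7% of the region's pseudogenes and 69.8% of all pseudogenes. Array signal depends on the probe as well as on the transcript, so a dim locus is not thereby a weakly transcribed one. The files hold no chromatin measurement, and the 143 loci numbered 3000 to 3999 just outside the range also include 44.8% pseudogenes, so the edge of the range is not an edge of this composition.

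At day 1 many of the region's pseudogene loci were higher in sahh1 seedlings than in wild-type seedlings. In all 74 of the 777 loci rose (9.52%) and 2 fell (0.257%). Over all loci the share called was 2.16% higher and 0.296% lower, and among other AT4G loci 40 rose (1.02%) and 15 fell. The risers comprised 69 pseudogenes and 5 protein-coding loci. Their differences had a median of 1.86 and a range of 0.84 to 6.04 on the log2 scale, and 68 were at least 2-fold. The median difference over the whole region was 0.03, against −0.04 for other AT4G loci. The median locus of the region thus lay close to 0. The risers were the called part of an upper tail, since 97 loci, called or not, were more than 2-fold higher. Both sahh1 samples lay above both wild-type samples for 229 loci (29.5%), which 18.2% of all loci did. That held for 33.8% of the region's pseudogenes and 29.6% of all pseudogenes, and for 19.5% and 16.3% of protein-coding loci.

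The share of loci that rose at day 1 followed the class of locus. Of the region's pseudogenes 12.7% rose, against 10.4% of other AT4G pseudogenes and 12.3% of all pseudogenes. A pseudogene of the region was thus called about as often as a pseudogene elsewhere. Of its protein-coding loci 2.16% rose, against 0.439% of other AT4G protein-coding loci and 0.415% of all. That share rests on 5 loci, and the difference between the shares was not tested.

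**Figure D1:**
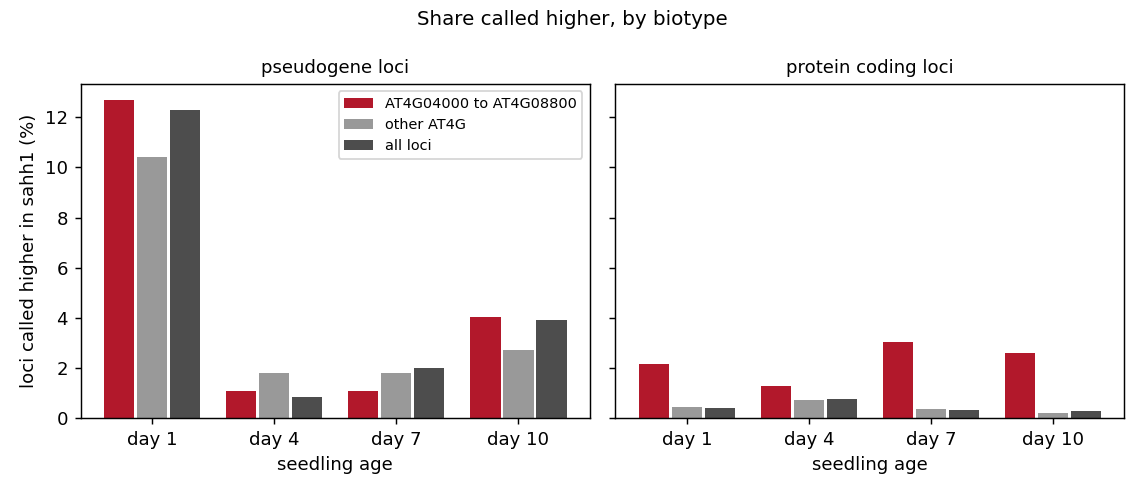
Share of loci called higher in sahh1 (vertical axis, percent) at each seedling age for pseudogene loci (left panel) and protein-coding loci (right panel). Red bars are loci AT4G04000 to AT4G08800, light grey bars other AT4G loci and dark grey bars all loci. At day 1 the 3 pseudogene bars stand at 12.7%, 10.4% and 12.3%, while the protein-coding bars stand at 2.16%, 0.439% and 0.415%.

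The largest difference at day 1 was that of the pseudogene locus AT4G06698. Its log2 intensity was 11.27 and 10.85 in the sahh1 samples, against 4.68 and 5.35 in the wild-type samples. This is a rise of 6.04 ± 0.23 (65.9-fold in measured intensity, adjusted p = 1.43e-07). The wild-type samples lay on either side of the lower quartile of all loci, which was 4.73 to 4.76 on their arrays. AT4G06698 was also 1 of the 3 loci that rose at all 4 ages. At day 4 it had 7.71 and 7.65 in sahh1 and 5.29 and 5.57 in wild type. At day 7 it had 9.79 and 9.80 in sahh1 and 6.74 and 7.18 in wild type, and at day 10 9.64 and 9.61 in sahh1 and 5.67 and 5.62 in wild type. The groups did not overlap at any age, and the smallest rise, at day 4, was 2.25 ± 0.23 (adjusted p = 0.000982).

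AT4G08430, a protein-coding locus without a symbol in the reference, rose at all 4 ages as well. At day 1 its log2 intensity was 10.90 and 10.82 in sahh1 and 6.09 and 6.54 in wild type (difference 4.54 ± 0.25, adjusted p = 8.84e-07). At day 4 it was 7.52 and 6.59 in sahh1 and 5.18 and 5.29 in wild type (1.82 ± 0.25, adjusted p = 0.00797). The sahh1 samples of day 4 differed by nearly 1 unit, yet both lay above both wild-type samples. At day 7 it was 9.48 and 9.36 in sahh1 and 6.41 and 6.25 in wild type (3.09 ± 0.25), and at day 10 9.0 and 9.09 in sahh1 and 5.18 and 5.13 in wild type (3.89 ± 0.25). The samples of each genotype were again well separated.

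The third such locus, the pseudogene AT4G06748, had a higher wild-type level at day 1 than AT4G06698 and AT4G08430. Its log2 intensity then was 8.78 and 8.97 in sahh1 and 7.30 and 7.39 in wild type, a rise of 1.53 ± 0.16. By day 7 it was 7.94 and 7.95 in sahh1 and 4.58 and 4.82 in wild type, a rise of 3.24 ± 0.16 (adjusted p = 2.00e-06). At day 4 the difference was 1.24 ± 0.16 and at day 10 2.65 ± 0.16. Between ages, after quantile normalization, the wild-type level was lower at day 10 than at day 1 by 2.66 ± 0.28 (adjusted p = 2.05e-05). The genotype difference thus remained while the wild-type signal declined.

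Other risers had by far their largest difference at day 1. AT4G08016 had a log2 intensity of 10.15 and 9.85 in sahh1 and 4.54 and 4.86 in wild type at day 1 (5.30 ± 0.20, adjusted p = 1.46e-07). Later its differences were 0.56 (day 4, not called), 1.27 (day 7, adjusted p = 0.0147) and 1.65 (day 10, adjusted p = 0.00154). AT4G07518 had 9.78 and 9.33 in sahh1 and 4.32 and 4.96 in wild type at day 1 (4.91 ± 0.30, adjusted p = 1.73e-06). At day 7 AT4G07518 had 6.96 and 7.69 in sahh1 and 6.74 and 7.30 in wild type, so the groups overlapped. The pseudogenes AT4G08091 (5.26 ± 0.36) and AT4G07519 (4.64 ± 0.45) complete the 6 largest rises of day 1.

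CPK22 and AT4G08160 fell at day 1. CPK22 (AT4G04710), a calcium-dependent protein kinase gene, had a log2 intensity of 5.90 and 5.83 in sahh1 and 7.13 and 6.96 in wild type. Its fall of 1.19 ± 0.17 (adjusted p = 0.00197) was called under all 27 alternatives tried. At days 4, 7 and 10 its difference lay between −0.06 and 0.13 and was not called. The protein-coding locus AT4G08160 had 7.74 and 8.42 in sahh1 and 9.31 and 8.88 in wild type, with non-overlapping groups (−1.02 ± 0.23, adjusted p = 0.0403), and lost its call under 18 of 27 alternatives.

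Where dim loci were left out, dimness was the mean over all arrays, sahh1 included, so a locus could be kept through its own rise. The wild-type level of the day 1 risers had a median of 4.46 at that age. The number called at day 1 was 76 in both directions together. It was 44 without wild-type sample 2 of that age, 43 after quantile normalization over all arrays and 44 of 314 loci when the dimmest 25% of loci were left out.

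**Figure D2:**
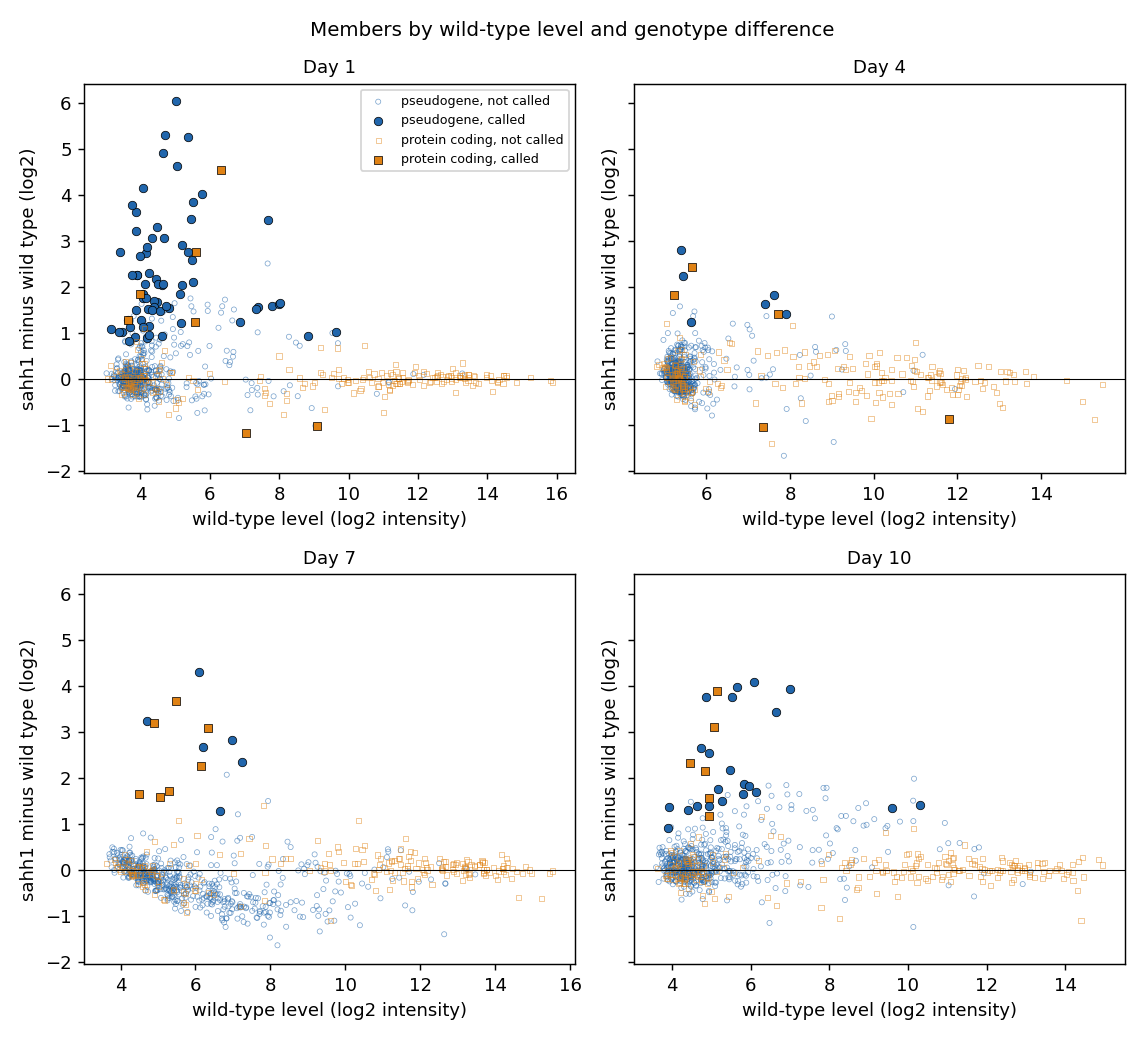
Difference between genotypes (sahh1 minus wild type, log2) against the wild-type level (log2 intensity) for each of the region's pseudogene (circles) and protein-coding (squares) loci, 1 panel per age. Filled symbols are loci called by limma. At day 1 the called loci reach 6.04 at low wild-type levels, and at day 7 the pseudogenes of middle level lie below 0.

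At day 4 few of the region's loci were called. Of 777 loci 9 rose (1.16%) and 2 fell (0.257%), where the share over all loci was 0.78% higher and 0.833% lower. Among other AT4G loci 31 rose (0.793%) and 47 fell. The region's shares were therefore near the background in the upward direction. Of the 9 risers 6 were pseudogenes, 1.1% of the region's 544, against 1.81% of other AT4G pseudogenes and 0.859% of all. The other 3 were protein coding, 1.3% of the region's 231, against 0.767% of all protein-coding loci. All 9 lay above the lower quartile of the mean over all arrays. That mean includes sahh1, so a locus could pass through its own rise. In wild type at day 4 these 9 risers had a median level of 5.66. The lower quartiles of those wild-type arrays were close to this, at 5.61 to 5.62. The median difference was 0.05 over the region and −0.00 over other AT4G loci.

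The largest rise of day 4 was that of the pseudogene AT4G04293. Its log2 intensity was 9.09 and 7.30 in sahh1 and 5.08 and 5.71 in wild type (2.80 ± 0.61, adjusted p = 0.0488). The sahh1 samples differed by more than 1 unit without reaching the wild-type samples, and the call was lost under 16 of 26 alternatives. At day 1 AT4G04293 gave hardly any signal in either genotype, with 3.67 and 3.41 in sahh1 and 3.36 and 3.51 in wild type, where the 5th percentile of all loci was 3.48 to 3.53. At day 7 it had 10.37 and 10.45 in sahh1 and 7.12 and 5.08 in wild type (4.31 ± 0.61). By day 10 it had 11.15 and 10.73 in sahh1 and 6.88 and 7.13 in wild type (3.94 ± 0.61). The call of day 7 was lost under 3 of 27 alternatives. That of day 10 was lost under 4 of 27, each leaving out 1 sample of that age. In wild type too the level of AT4G04293, after quantile normalization, was higher at day 10 than at day 1, by 2.86 ± 0.61 (adjusted p = 0.00283).

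The protein-coding locus AT4G05095 had the second largest rise at day 4. Its log2 intensity was 7.98 and 8.22 in sahh1 and 5.71 and 5.61 in wild type (2.44 ± 0.27, adjusted p = 0.00191). Its rise at day 7 was 2.27 ± 0.27 (adjusted p = 0.00143), and it was not called at day 1 (0.44) or day 10 (1.16). The pseudogenes AT4G07896 and AT4G06622 also rose at day 4. AT4G07896 had 9.67 and 9.21 in sahh1 and 7.89 and 7.32 in wild type (1.83 ± 0.28, adjusted p = 0.0151). AT4G06622 had 8.75 and 9.29 in sahh1 and 7.64 and 7.15 in wild type (1.62 ± 0.35, adjusted p = 0.0486), and lost its call under 18 of 26 alternatives. Both had clear signal in wild type already.

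Both loci that fell at day 4 are protein coding. NDB2 (AT4G05020), which encodes an external NAD(P)H dehydrogenase of mitochondria, had a log2 intensity of 10.92 and 10.96 in sahh1 and 11.75 and 11.87 in wild type (−0.87 ± 0.15, adjusted p = 0.0244). AT4G04990 had 6.31 and 6.29 in sahh1 and 7.28 and 7.42 in wild type (−1.05 ± 0.22, adjusted p = 0.0433). Neither pair of groups overlapped. The call of AT4G04990 was lost under 15 of 26 alternatives, and that of NDB2 under 5 of 26, among them leaving out either wild-type sample of day 4. AT4G04990 was lower by a similar amount at days 7 (−1.10, adjusted p = 0.0597) and 10 (−1.06, adjusted p = 0.0514), and it fell on the mean of the 4 ages (−0.96 ± 0.11, adjusted p = 0.000304).

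The count of 11 calls at day 4 depended on the normalization and on the samples. After quantile normalization over all arrays it was 46, with 30 higher and 16 lower. Leaving out a sahh1 sample of that age gave 35 (the first) or 70 (the second), and leaving out a wild-type one gave 4 (the first) or 2 (the second). It was 0 in limma with array weights, where 27 loci had an unadjusted p under 0.05. Root markers were lower in sahh1 at this age, as given above, and their part in these differences was not tested.

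At day 7 the risers were fewer than at day 1 and included a larger share of protein-coding loci. Of the region's 777 loci 13 rose (1.67%) and 0 fell, while over all loci 0.563% were called higher and 0.0658% lower. Among other AT4G loci 17 rose (0.435%) and 3 fell. The 13 comprised 6 pseudogenes (1.1% of 544, against 1.99% of all pseudogenes) and 7 protein-coding loci (3.03% of 231, against 0.325% of all protein-coding loci). At an unadjusted limma p under 0.05, 40 of the 777 loci were higher and 118 lower, while of all 30385 loci 1010 were higher and 1259 lower.

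AT4G07526, a protein-coding locus, had the second largest rise of day 7. Its log2 intensity was 9.14 in both sahh1 samples and 6.04 and 4.89 in wild type (3.67 ± 0.53, adjusted p = 0.00702). It rose at day 1 (2.76 ± 0.53) and day 10 (3.10 ± 0.53) too. Each of its calls at days 1, 7 and 10 was lost under 5 of 27 alternatives, quantile normalization among them. At day 4 AT4G07526 had 7.28 and 5.23 in sahh1 and 4.87 and 5.24 in wild type, so the groups overlapped and the difference of 1.20 was not called. The protein-coding AT4G08593 had 8.30 and 7.86 in sahh1 and 4.80 and 4.98 in wild type at day 7 (3.19 ± 0.33, adjusted p = 0.000509), and it rose at days 1 (1.84) and 10 (2.33).

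The region's pseudogenes tended to lie lower in sahh1 at day 7, and its protein-coding loci did not. The median difference over all the region's loci, risers included, was −0.11, against 0.03 over other AT4G loci. Both sahh1 samples lay below both wild-type samples for 225 loci (29.0%, where 16.6% of all loci did so) and above them for 111 (14.3%, where 19.4% of all loci did so). They lay below for 34.7% of the region's pseudogenes and 33.3% of all pseudogenes. The median difference of pseudogenes was −0.22 in the region, −0.14 over other AT4G loci and −0.16 over all loci. That of the region's protein-coding loci was 0.02, with both sahh1 samples above both wild-type samples for 55 (23.8%) and below them for 35 (15.2%). The array medians of the region's loci were 5.56, 5.54, 5.90 and 5.88 in sahh1 and 5.85, 5.76, 6.21 and 6.21 in wild type. Both genotypes thus held a lower and a higher pair of arrays. The higher sahh1 pair lay just above the lower wild-type pair, while the lower and the higher sahh1 pair each lay below the lower and the higher wild-type pair. The lower quartile of all loci on the same arrays was 6.04 to 6.20 in sahh1 and 6.20 to 6.23 in wild type, and the part of this difference in low signals between arrays was not tested.

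Leaving out sahh1 sample 1 of day 7 reduced the 13 calls to 8. After quantile normalization 7 were called, with the groups of day 7 fitted alone 2 were called, and with all 32 arrays taken as replicates 25 loci rose and 37 fell.

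At day 10 pseudogenes led again. Of the 777 loci 28 rose (3.6%) and 0 fell, with 0.823% of all loci higher and 0.201% lower. At an unadjusted limma p under 0.05, 95 of the 777 loci were higher and 16 lower, while of all 30385 loci 1027 were higher and 1093 lower. Among other AT4G loci 14 rose (0.358%) and 8 fell. The risers were 22 pseudogenes, 4.04% of the region's and near the 3.91% of all pseudogenes, and 6 protein-coding loci, 2.6% of the region's against 0.297% of all. Both sahh1 samples lay above both wild-type samples for 230 loci (29.6%), which 16.5% of all loci did. That held for 33.8% of the region's pseudogenes, 28.1% of other AT4G pseudogenes and 31.1% of all pseudogenes. Of protein-coding loci it held for 19.5% in the region and 13.9% among other AT4G loci. The median difference was 0.07 over the region and −0.02 over other AT4G loci. For pseudogenes the median was 0.13 in the region, 0.03 over other AT4G loci and 0.07 over all loci.

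The pseudogene AT4G07850 had the largest rise of day 10. Its log2 intensity was 10.25 and 10.07 in sahh1 and 5.97 and 6.19 in wild type (4.08 ± 0.19, 17-fold in measured intensity, adjusted p = 9.29e-07). At day 1 it had 6.24 and 6.18 in sahh1 and 4.28 and 4.00 in wild type (2.07 ± 0.19), and at day 7 9.66 and 9.53 in sahh1 and 7.11 and 7.39 in wild type (2.35 ± 0.19). The groups did not overlap at these ages. At day 4 the values of 6.28 and 5.82 in sahh1 and 5.19 and 5.46 in wild type also did not overlap, but the difference of 0.72 was not called (adjusted p = 0.0917).

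The pseudogene AT4G08680 rose by 3.76 ± 0.41 at day 10 (adjusted p = 0.000551), with a log2 intensity of 8.87 and 8.36 in sahh1 and 4.87 and 4.84 in wild type. At day 1 it had 8.35 and 7.89 in sahh1 and 5.61 and 4.78 in wild type (2.93 ± 0.41). At day 7 it had 8.23 and 9.52 in sahh1 and 5.85 and 6.58 in wild type (2.66 ± 0.41). No groups overlapped at these ages. The day 4 values of 6.75 and 6.52 in sahh1 and 5.31 and 5.09 in wild type did not overlap either, and the difference of 1.44 was not called (adjusted p = 0.118). The pseudogene AT4G06555 likewise rose at day 10 (3.75 ± 0.44) and day 1 (3.07 ± 0.44).

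In place of 28, 14 or 13 loci were called when the first or second sahh1 sample of day 10 was left out, and 14 or 15 when the first or second wild-type one was. Quantile normalization left 16. The root-hair gene EXPA7 was lower in sahh1 at this age, as given above, and its part was not tested.

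**Figure D3:**
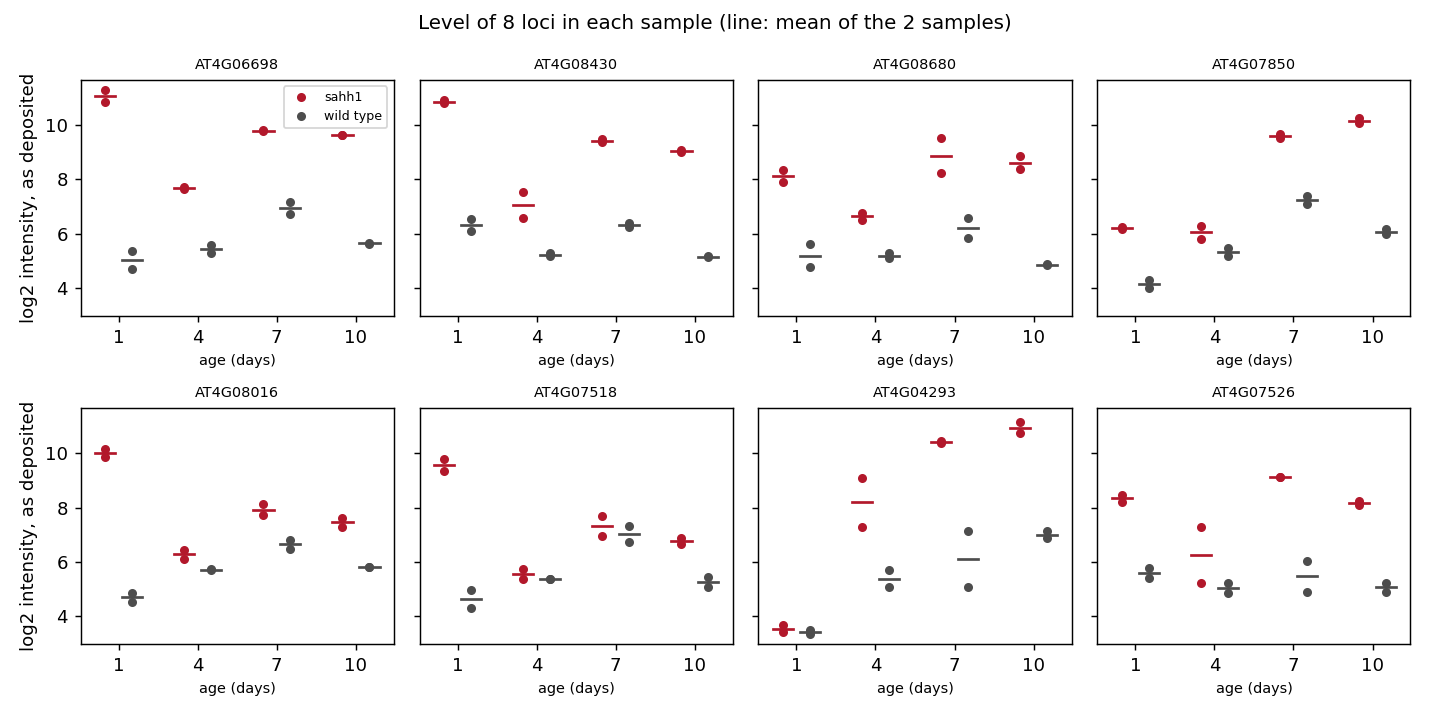
Log2 intensity (vertical axis) of 8 loci in each sample against seedling age in days. Red points are the 2 sahh1 samples and dark grey points the 2 wild-type samples, with a line at their mean. AT4G06698 is separated at every age, AT4G08016 and AT4G07518 most widely at day 1, and AT4G04293 only from day 4 on.

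Over the 4 ages 84 of the region's loci rose at 1 age or more, 74 of them pseudogenes and 10 protein coding, and 4 fell. The same counts were not taken over all loci, so these counts and the overlaps between ages describe the region alone. At day 1, the age with most risers, 12.7% of the region's pseudogenes and 12.3% of all pseudogenes rose. No locus rose at one age and fell at another, and 689 were called at no age. Of the risers 59 were called at exactly 1 age, 13 at 2, 9 at 3 and 3 at all 4. Day 1 alone accounted for 52. The loci that rose at both day 1 and day 10 numbered 22, which is 29.7% of the day 1 risers and 78.6% of the day 10 risers. Days 7 and 10 shared 11, or 84.6% of the day 7 and 39.3% of the day 10 risers, and days 1 and 7 shared 9, or 12.2% and 69.2%. Most loci called at days 7 and 10 were thus also called at day 1.

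The 74 loci that rose at day 1 were selected by their difference at that age, so smaller differences at other ages follow in part from the selection. Their median difference was 0.33 at day 4, 0.04 at day 7 and 0.61 at day 10. Of them 58 were above 0 at day 4, 38 at day 7 and 65 at day 10, and 32 at all ages. At day 7 these loci were thus divided almost evenly between both signs. The 25 loci called at 2 or more ages were 19 pseudogenes and 6 protein-coding loci, and 23 of them were above 0 at all ages. The 2 exceptions were AT4G04426, at −0.21 on day 4, and AT4G05380, at −0.08 on day 1.

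**Figure D4:**
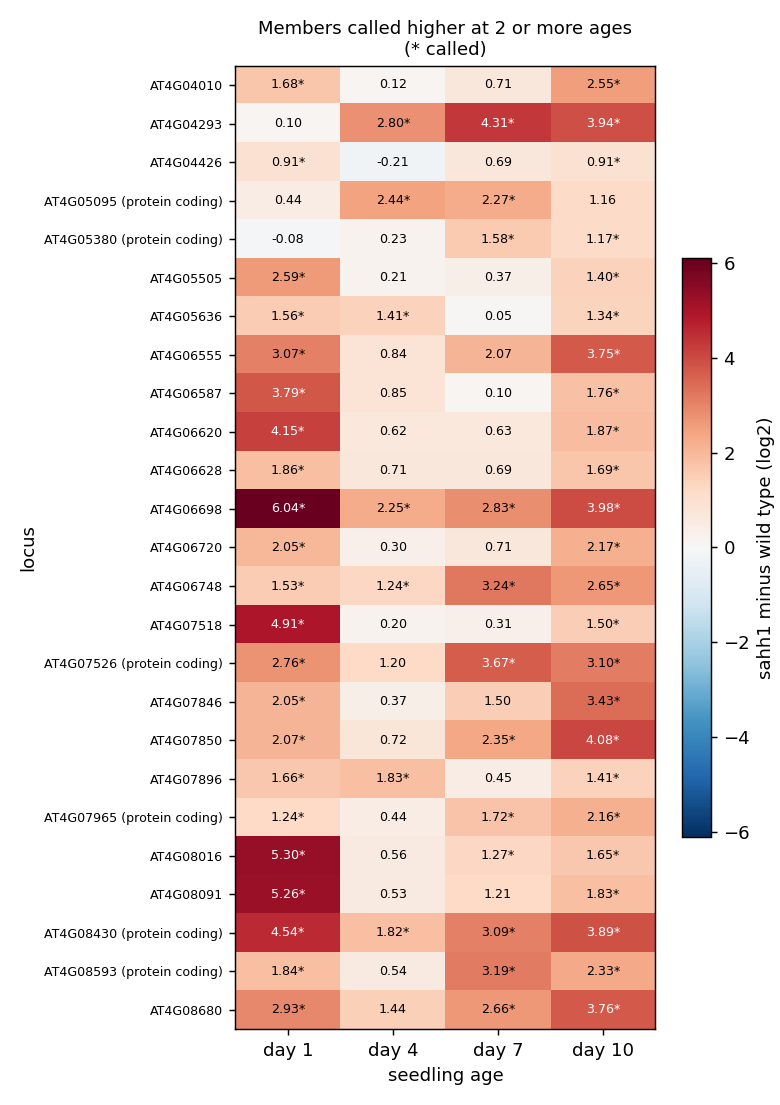
Differences between genotypes (sahh1 minus wild type, log2; colour scale at right) of the 25 loci called higher at 2 or more ages, with ages as columns and loci in order of number as rows. A star marks a call. AT4G06698, AT4G06748 and AT4G08430 are called at all 4 ages, and the day 4 column holds the fewest stars.

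The ages were compared directly with an F test in limma after quantile normalization, since array intensities differed between ages (array medians of 449 to 1945). The genotype difference changed between ages for 14 of the 777 loci (1.8%), where 0.615% of all loci were called. Of the 14, 13 are pseudogenes, 2.39% of the region's pseudogenes against 2.71% of other AT4G pseudogenes and 2.44% of all pseudogenes, so the share followed the class of locus. Of the 14, 11 had risen at day 1, and 10 had their largest difference at day 1. The pseudogene AT4G04545 had the smallest adjusted p (0.00437). Its log2 intensity, as deposited, was 6.90 and 7.32 in sahh1 and 3.86 and 3.90 in wild type at day 1 (3.23 ± 0.24). At day 10 it was 4.81 and 4.64 in sahh1 and 4.80 and 4.35 in wild type, with overlapping groups and a difference of 0.15.

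Next came AT4G08016 (adjusted p = 0.00824), AT4G04390 (0.0130) and AT4G07518 (0.0148), all pseudogenes with the largest difference at day 1. AT4G07850 (0.0273) differed from them in that its difference was largest at day 10. The only protein-coding locus among the 14 was AT4G05095 (0.0186), whose difference was largest at day 4. The count of 14 rests on few samples: leaving out 1 sample at a time gave 2 to 96 calls.

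On the mean of the 4 ages 69 loci rose (8.88%) and 4 fell, where 2.45% of all loci were called higher and 1.03% lower. Among other AT4G loci 51 rose (1.3%) and 61 fell. Of the region's pseudogenes 60 rose (11%), near the 9.95% of other AT4G pseudogenes and the 11.5% of all pseudogenes. Of the 69 risers 9 had been called at no single age. The 4 that fell were AT4G04990 and the pseudogenes AT4G08115 (−1.10 ± 0.15), AT4G04410 (−0.89 ± 0.18) and AT4G07583 (−0.42 ± 0.10), the pseudogenes being named after their values were seen. AT4G08115 was the steadiest of them, between −0.92 and −1.25 at each age.

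Along the locus numbers, calls followed the pseudogenes in most stretches. Numbers 6000 to 6999 held 218 loci, 93.6% of them pseudogenes, and 27 (12.4%) rose at day 1. In 7000 to 7999 there were 161 loci, 87.0% pseudogenes, and 19 (11.8%) rose. The 141 loci of 4000 to 4999 had 46.8% pseudogenes and 13 risers (9.22%), and the 153 loci of 8000 to 8800 had 57.5% and 13 risers (8.5%). Numbers 5000 to 5999 were different: 44.2% of 104 loci were pseudogenes, about the share of 4000 to 4999, and 2 (1.92%) rose. Just outside, 10 of 143 loci (6.99%) of 3000 to 3999 rose, and 0 of 33 from AT4G08810 to AT4G08995.

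**Figure D5:**
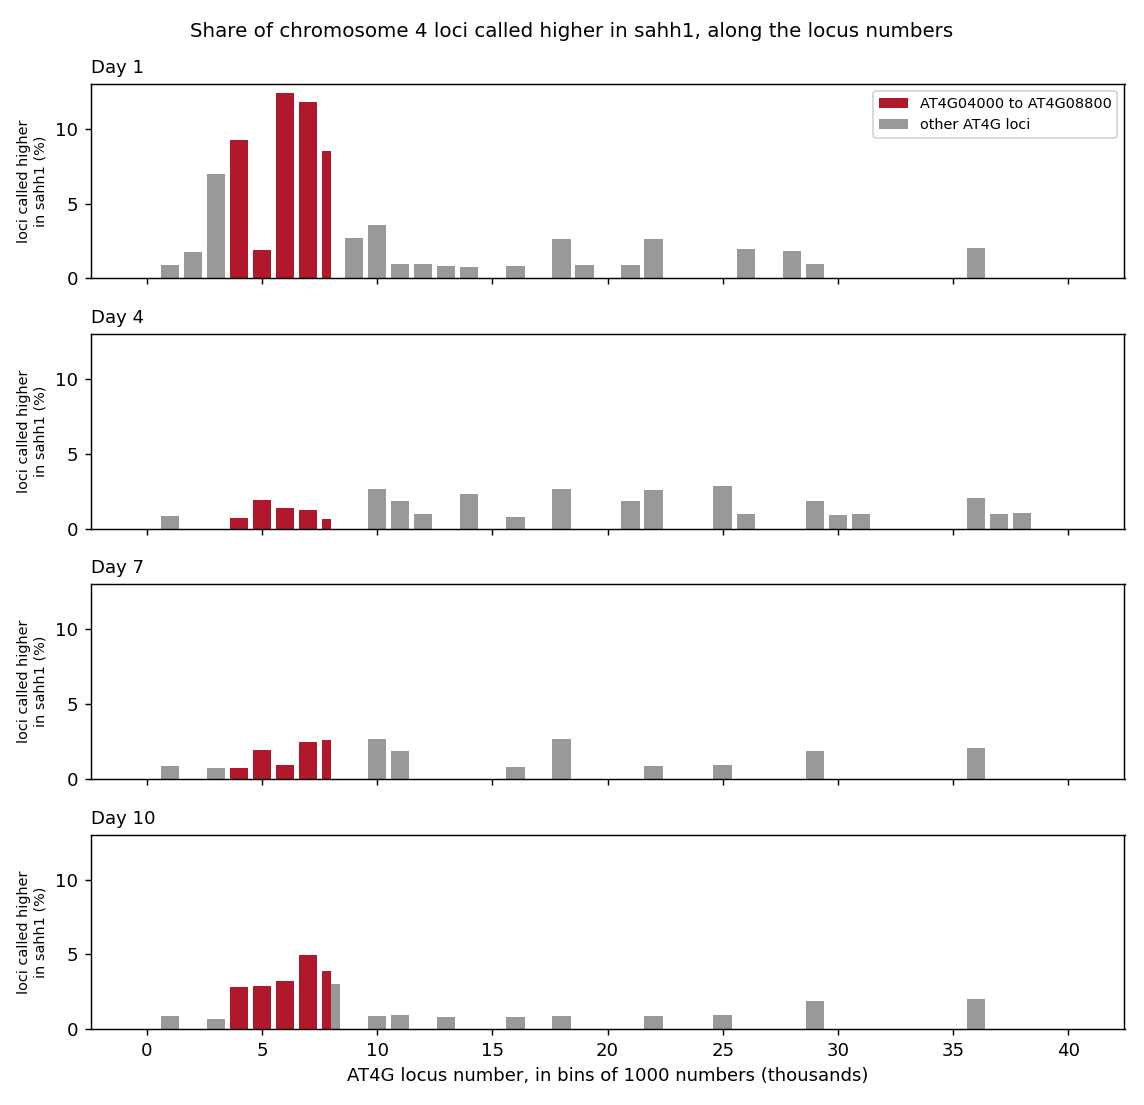
Share of loci called higher in sahh1 (vertical axis, percent) in bins of 1000 locus numbers along AT4G (horizontal axis), 1 panel per age. Red bars are the loci AT4G04000 to AT4G08800 and grey bars other AT4G loci. At day 1 the bins of 6000 and 7000 stand at 12.4% and 11.8%, while the bin of 5000 stands at 1.92%.

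Most risers had no risen neighbour. In the order of the reference the 74 risers of day 1 formed 62 runs, of which 10 held 2 or more loci and 22 loci together. The longest run was AT4G08000, AT4G08010, AT4G08013 and AT4G08016, all pseudogenes. Within it the rise at day 1 was 1.51 ± 0.32, 1.03 ± 0.20, 3.47 ± 0.33 and 5.30 ± 0.20 in that order, and AT4G08016 alone was called at another age. AT4G07846, the neighbour of AT4G07850 and its partner in the single run of day 10, rose by 3.43 ± 0.34 there and by 2.05 ± 0.34 at day 1. Near-identical repeat copies may share array signal. Probe sequences were not used here, and their part in these runs was not tested.

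At the edges of the range, the first locus AT4G04000 (0.71, 0.12, 0.12 and 0.19 at days 1, 4, 7 and 10) and the last, AT4G08800 (0.12, −0.10, −0.67 and 0.20), were not called. Nor were their neighbours outside, AT4G03990 (0.16, 0.28, 0.71 and 1.49) and SUB1, AT4G08810 (0.07, −0.02, −0.03 and 0.04).

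Genes of known families in the region were seldom called. Of 34 listed genes 1 was called at any age, CPK22 at day 1, when 2.16% of the region's protein-coding loci rose and 0.866% fell. Among 34 genes such shares amount to about 1 call at day 1 alone. Over the 4 ages 10 of the region's 231 protein-coding loci rose and 4 fell. A count of 1 among 34 genes is too small to set the families apart, and the shares were not tested. At an unadjusted limma p under 0.05, 1 was higher and 3 lower at day 1, 3 and 3 at day 4, 3 and 2 at day 7, and 0 and 1 at day 10. The other 4 calcium-dependent protein kinase genes differed at day 1 by −0.25 (CPK27) to 0.04 (CPK21). Among 6 genes of cysteine-rich receptor-like kinases the widest difference was that of CRK36 at day 4 (−1.41 ± 0.35, adjusted p = 0.0779), with a log2 intensity of 6.62 and 5.68 in sahh1 and 7.96 and 7.15 in wild type. In the 4 MSRB genes, which encode methionine sulfoxide reductases, the medians ran from −0.28 to −0.13 over the ages.

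The 4 genes of nucleoside transporters (ENT6, FUR1, ENT4 and AT4G05140) differed by −0.31 to 0.40, and the 3 MEKK kinase genes by −0.24 to 0.24. Extensin-like genes, for cell wall proteins, reached −1.11 at day 10 (AT4G08400) and −0.87 at day 4 (AT4G08410) without a call. SULTR1;1, a high-affinity sulfate transporter gene, had 9.41 and 9.03 in sahh1 and 8.38 and 7.25 in wild type at day 7 (1.41 ± 0.36, adjusted p = 0.183). ORTHL, related to the VIM1 gene for a reader of methylated DNA, had differences of −0.03, 0.21, 0.43 and 0.24 at days 1, 4, 7 and 10. KNAT1, a homeobox gene of the shoot meristem, and the polyubiquitin gene UBQ11 were bright in all samples, and their differences lay between −0.00 and 0.47 and between −0.05 and 0.15.

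In wild-type seedlings alone, the region's loci also changed with age. After quantile normalization 115 loci were higher at day 10 than at day 1 (14.8%) and 67 lower (8.62%), where 21.4% of all loci were higher and 24.4% lower. The balance depends on the scaling: 369 were higher and 65 lower on the values as deposited, and 186 and 68 with cyclic loess. After quantile normalization 11.9% of its pseudogenes were higher and 1.84% lower, against 10.8% and 4.54% of all pseudogenes. Of its protein-coding loci 21.6% were higher and 24.7% lower, near the 23.3% and 28.0% of all protein-coding loci. The pseudogene AT4G04410 was among those higher at day 10, by 5.42 ± 0.31 (adjusted p = 2.00e-07). As deposited, its wild-type log2 intensity was 11.51 and 11.85 at day 10 and 5.82 and 5.46 at day 1.

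Of 18 listed genes of the silencing machinery, all outside the region, IBM1 and CMT3 were called. IBM1, which encodes a histone demethylase that protects genes from methylation, fell at day 1 (−1.19, adjusted p = 0.00408), day 7 (−1.29, adjusted p = 0.0082) and day 10 (−1.08, adjusted p = 0.0182), when 0.296%, 0.0658% and 0.201% of all loci fell. CMT3, a chromomethylase gene for DNA methylation outside CG sites, rose at day 4 (0.99, adjusted p = 0.0123), when 0.78% of all loci rose. The other 16, among them MET1, for CG methylation, and DDM1, a chromatin remodeller, were called at no age.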

How the data were processed

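Total RNA of 32 seedling samples was hybridised to NimbleGen arrays. Per the labels the authors normalized with RMA (no version given), and the deposited table holds 1 linear intensity per locus and array. Array design and genome build are not given in the sources used here, so no coordinates are printed.

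Log2 was taken with no filter. Arrays 1 and 2, and 3 and 4, were averaged (16 samples). limma 3.58.1 in R 4.3.3 fitted 8 group means (8 residual degrees of freedom; empirical Bayes prior 3.16, and 2.54 after quantile normalization). Genotypes were compared on the values as deposited, ages after quantile normalization. P-values were adjusted over all loci. The fit was tested on simulated data. Classes and order came from the RefSeq annotation of TAIR10.1, which held 775 of the 777 loci; transcribed pseudogenes count as pseudogenes.

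The range of locus numbers, the lists and the tests were chosen with earlier results of these data known; within that range every measured locus is a member. Named loci are the 6 largest rises and 4 largest falls called at each age, called loci with a symbol, the 6 largest of those called at 3 or more ages, the 4 smallest p in the F test, listed families, AT4G08680 and the edges. Loci in runs, exceptions and edges of counts were named after their values were seen. The alternatives are given in the closing section.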

Additional observations from a re-analysis of the deposited data

Results flagged for a closer look

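Differences between genotypes that themselves changed between ages, by the limma F test after quantile normalization, were found for 14 of the 777 loci, where 0.615% of all loci and 2.44% of all pseudogenes were called. The smallest adjusted p-values were those of AT4G04545 (0.00437), AT4G08016 (0.00824), AT4G04390 (0.0130) and AT4G07518 (0.0148). On the quantile-normalized log2 scale the difference of AT4G04545 at days 4, 7 and 10, minus that at day 1, was −1.75, −2.75 and −2.57. For AT4G04390 these values were −1.62, −1.98 and −1.76, and its deposited day 1 log2 intensity was 5.90 and 6.44 in sahh1 and 4.06 and 3.74 in wild type. Groups of 2 samples are too small for a search for single outlying samples.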

How the results depend on the processing

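No call of a named locus changed direction under the alternatives run, and each was kept or lost as a call. The number of the region's loci called was 76, 11, 13 and 28 at days 1, 4, 7 and 10, 73 on the mean of the ages, 14 in the F test and 182 for wild type between day 10 and day 1. With all 32 arrays as replicates these were 124, 74, 62 and 74 by day, 136 on the mean and 100 in the F test, with 25 higher and 37 lower at day 7. With the array pair as a random block day 4 gave 33, day 7 20 (16 higher, 4 lower) and the F test 26. Quantile normalization gave 43, 46, 7 and 16 by day. The F test gave 39 with cyclic loess, and 37 with the values as deposited, which gave 434 for wild type (369 higher at day 10, 65 lower). Cyclic loess gave 254 there (186 higher, 68 lower). Without the dimmest 25% of loci day 1 gave 44 and the F test 8, from 314 loci. That filter took the mean over all arrays, sahh1 included, so it could keep a locus through its own rise. Array weights gave 0 at day 4 (27 at an unadjusted limma p under 0.05) and 31 in the F test, and a trended robust prior gave 7 there. Fitting each age alone gave 50 at day 1, 0 at day 4 (35 unadjusted) and 2 at day 7. Requiring 2-fold left 36 on the mean of the ages. With log2(value + 32) the 6 counts refitted stayed within 1.5 times these.

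When 1 sample at a time was left out, day 1 gave 44 to 84, day 4 gave 2 to 70, day 7 gave 8 to 18, day 10 gave 13 to 37, the mean gave 56 to 94, the F test 2 to 96 and wild type 129 to 231. A group left with 1 sample is assumed to vary like the others. Each of these highest counts came without a sahh1 sample of day 4. Leaving out both day 4 groups, an alternative chosen after seeing the data, gave 73, 16 and 31 at days 1, 7 and 10 and 70 on the mean.

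Samples with the same replicate number were not treated as paired, since their deviations did not go together at every age: the correlation was −0.51, 0.18, 0.75 and −0.13 at days 1, 4, 7 and 10. With the replicate number as a block the counts were 74, 13, 18 (13 higher, 5 lower) and 30 by day, 76 on the mean and 0 in the F test, so all 14 calls were lost (156 at an unadjusted limma p under 0.05).

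The median difference of the region moved beyond the spread between samples without the dimmest loci (−0.03 at day 7, 0.16 at day 10, 0.05 on the mean), without wild-type sample 1 of day 7 (−0.19) and over AT4G05000 to AT4G08000 (0.13 at day 10). Signals near the arrays' lower end limit the size of the rises.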
